A study of Mus musculus with 27 samples.

Results

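The genes described here are 38 mouse genes of the cornified envelope and of keratinocyte differentiation, taken by name for their role. The rule for membership used no measured value, but the list was drawn up with earlier results of these data known. Of these, 37 had a row among the 24454 genes of the expression table, and the expression of Flg was not analysed here. A further 6 (Sprr2a1, Sprr2d, Sprr3, Tgm3, Hrnr and Krt1) did not reach 1 CPM (counts scaled to the reads of a library, so that libraries of unequal depth can be compared) in at least 2 of the 27 libraries, so that 31 members were tested together with all other such genes, 13270 in total. By role, the list holds 12 precursors of the envelope, 6 enzymes of crosslinking and the lipid barrier, 7 genes of the filaggrin group and its processing, 8 suprabasal keratins, secreted and adhesion proteins, and 5 regulators and signalling proteins.

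The cornified envelope is a shell of crosslinked protein that replaces the plasma membrane of the outermost cells of the epidermis and of other stratified squamous epithelia. Precursors such as involucrin, loricrin and the small proline-rich proteins are joined by transglutaminases, lipids are attached from outside, and proteases release the cells from each other at the surface. The luminal and basal epithelium of the mammary gland does not normally build such an envelope, but mammary tumours can hold areas of squamous differentiation.

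RNA-sequencing was performed on 9 tumour cell lines from thoracic mammary tumours of 12-week-old female MMTV-PyMT transgenic mice (FVB/N strain), in which the mouse mammary tumour virus promoter drives the polyoma middle T oncogene. Bcl9 and its paralog Bcl9L are coactivators that bind Pygopus through their HD1 domain and β-catenin through their HD2 domain. Lines of the genotypes ΔHD1/fl and ΔHD2/fl carried Bcl9/Bcl9L alleles without that domain next to floxed alleles, whereas ΔHD1/- and ΔHD2/- lines had lost the floxed alleles in culture through an adenovirus that carried Cre and GFP, followed by sorting of GFP-positive cells. Every line therefore carried the oncogene and a domain-deleted allele, and no line with only wild-type Bcl9/Bcl9L was analysed here. There were 2 lines of each genotype and 3 of ΔHD2/-, and replicate lines came from different mice per the labels. Each line was kept without cytokine, with Wnt3a at 100 ng/ml over 3 days, or with TGFβ at 2 ng/ml over 4 days. This gave 12 groups and 1 library for each line and treatment. The labels list the no-cytokine libraries at 4 days, 1 day longer than Wnt3a, with plating and RNA isolation shared by all treatments. The depth was 21.86 to 33.69 M reads (M for mega) per library. A gene with 0 reads could still have had 3, which in these libraries is 0.089 to 0.137 CPM.

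Some libraries stood apart from their labels. The lines ΔHD1/fl 2 and ΔHD1/- 2 lacked the epithelial adhesion genes, with Epcam at 0.0746 and 0 CPM and Cdh1 at 0.522 and 0.237 CPM without cytokine. Their summed level of 6 fibroblast markers was 1890 and 5990 CPM, against 1.05 to 41.1 CPM in the other 7 lines. Of these 6 markers, Dcn was at 0.858 and 1.51 CPM in ΔHD1/fl 2 and ΔHD1/- 2, and Lum was at 0 CPM in both. These lines were not without every epithelial marker. The simple-epithelium keratin Krt8 was at 1090 CPM in ΔHD1/- line 2 and at 0.336 CPM in ΔHD1/fl line 2. Among basal markers, both lines held Trp63 (180 and 75.8 CPM, fl line first), Krt14 (356 and 223 CPM) and Itga6 (193 and 55.3 CPM). Krt5 and Krt15 of the same list were low in both lines, at 1.04 and 0.92 CPM and at 0.597 and 0.089 CPM. Results are therefore also given without these lines. ΔHD2/- lines 2 and 3 were nearly alike (correlation across genes 0.993 to 0.997, other pairs 0.807 to 0.957) and are also counted as 1 line where this changes a result. The β-catenin target Axin2 was higher with Wnt3a in all 9 lines, by a log2 change of 3.11 to 5.95. Changes within a line are given as the difference in log2(CPM + 1), which understates the change of low genes. In bulk RNA a lower level in each cell and fewer cells that express a gene cannot be told apart.

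Promoter windows of RefSeq (250 bases before to 50 after a gene's start, build GRCm38.p6) were found for 29 of the 38 members, Flg among them, and some members had more than 1 window, which made 35. The AP-1 motif TGANTCA, bound by Fos and Jun proteins and well known from keratinocyte genes, was present on either strand in 14 of these 35 windows (40%, from 12 members), against 7.81% of all 32851 windows. The TATA box letters TATAAA were present in 13 of the 35 (37.1%), against 13.6% of all windows. The TCF/LEF letters CTTTGAT or CTTTGAA, through which β-catenin is tethered to DNA, were present in 3 of the 35 (Cdsn, Krtdap and Tgm1, 8.57%), a share close to the 8.65% of all windows, and the Grainyhead letters AACCNGTT in 3 (Il1rn, Sfn and Tgm5, 8.57%), against 2.09%. Members of the same gene cluster have related promoters, so these are descriptions of letters in a short window and not of binding. The Sbsn window printed below lies within the span of the gene (30732674 to 30756134) and not at its first base. The windows of 5 members on which the results below turn are printed in the direction of the gene, with AP-1 and TCF/LEF letters in capitals: Sprr1a (chr3:92485832-92486131, minus strand) with AP-1 letters at 2 places, Sprr2h (chr3:92385435-92385734, plus strand) with 1, Krtdap (chr7:30787655-30787954, plus strand) with 1 and 1 match of TCF/LEF, Sbsn (chr7:30751221-30751520, plus strand) with AP-1 letters at 2 places, and Asprv1 (chr6:86627924-86628223, plus strand), shown because it responded in the same lines with none of either in its window.
Sprr1a: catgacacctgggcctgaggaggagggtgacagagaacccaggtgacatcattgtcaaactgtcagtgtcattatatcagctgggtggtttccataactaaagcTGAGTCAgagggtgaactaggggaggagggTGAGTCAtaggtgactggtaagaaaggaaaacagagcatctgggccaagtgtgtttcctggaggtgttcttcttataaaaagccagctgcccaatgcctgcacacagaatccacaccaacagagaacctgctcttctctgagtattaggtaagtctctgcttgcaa
Sprr2h: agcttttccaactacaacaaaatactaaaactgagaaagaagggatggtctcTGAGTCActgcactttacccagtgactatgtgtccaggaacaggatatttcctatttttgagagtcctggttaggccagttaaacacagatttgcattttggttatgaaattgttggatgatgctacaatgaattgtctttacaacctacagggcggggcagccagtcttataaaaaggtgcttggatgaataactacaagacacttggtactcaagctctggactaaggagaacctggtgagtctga
Krtdap: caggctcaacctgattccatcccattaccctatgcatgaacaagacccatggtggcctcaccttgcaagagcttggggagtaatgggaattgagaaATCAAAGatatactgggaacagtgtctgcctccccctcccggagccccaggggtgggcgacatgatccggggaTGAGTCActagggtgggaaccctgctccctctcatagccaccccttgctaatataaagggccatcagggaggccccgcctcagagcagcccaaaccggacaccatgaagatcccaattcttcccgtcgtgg
Sbsn: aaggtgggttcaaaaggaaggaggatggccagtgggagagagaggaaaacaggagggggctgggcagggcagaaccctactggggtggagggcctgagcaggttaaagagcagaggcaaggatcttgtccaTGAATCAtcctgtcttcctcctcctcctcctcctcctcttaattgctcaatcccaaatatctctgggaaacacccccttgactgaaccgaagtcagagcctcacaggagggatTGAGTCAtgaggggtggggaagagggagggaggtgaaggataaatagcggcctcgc
Asprv1: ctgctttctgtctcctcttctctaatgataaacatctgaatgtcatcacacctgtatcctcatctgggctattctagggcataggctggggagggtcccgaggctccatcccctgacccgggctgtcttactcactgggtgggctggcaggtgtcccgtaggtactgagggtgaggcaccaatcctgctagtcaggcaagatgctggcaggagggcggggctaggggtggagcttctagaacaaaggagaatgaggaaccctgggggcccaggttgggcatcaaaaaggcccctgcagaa

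Many of these genes were higher with Wnt3a in 5 of the 9 lines, and at most 2 were in each of the other 4. A log2 change of at least 1 upward was seen for 24 of 37 members in ΔHD1/fl line 1, for 20 in ΔHD2/fl line 1, for 19 in ΔHD2/fl line 2, for 14 in ΔHD2/- line 2 and for 11 in ΔHD2/- line 3. The share of the 13270 tested genes that were higher by as much in these lines was 4.31%, 2.4%, 3.12%, 2.68% and 2.82%, in the same order. No member was higher by this much in ΔHD1/- line 1, ΔHD1/- line 2 or ΔHD2/- line 1, where 0.497%, 0.452% and 0.264% of the tested genes were. In ΔHD1/fl line 2, 2 members were higher (Grhl3 and Sbsn) and 3 were lower (Sprr1b, Cdsn and Calml3), against 1.21% and 1.3% of the tested genes. Each of these values compares 1 library with 1 library and has no replicate check. Since ΔHD2/- lines 2 and 3 were nearly alike, they may count as a single responding line. The summed level of 5 basal epithelial markers was also higher with Wnt3a in 4 of these 5 lines, from 3730 to 10900 CPM in ΔHD1/fl line 1, from 7730 to 8270 CPM in ΔHD2/fl line 1, and from 1690 to 3480 CPM and 1410 to 3990 CPM in ΔHD2/- lines 2 and 3. It went from 16000 to 13500 CPM in ΔHD2/fl line 2. Krt14 made up most of this sum and was higher in all 5, whereas Krt5 was higher in 3, Itga6 in 1, and Trp63 was lower with Wnt3a in 9 of 9 lines. In ΔHD2/fl line 1, Krt5 went from 559 to 124 CPM and Trp63 from 30.9 to 15.4 CPM, while the sum of 6 fibroblast markers went from 41.1 to 243 CPM. The part of these markers in the result was not tested.

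**Figure D1:**
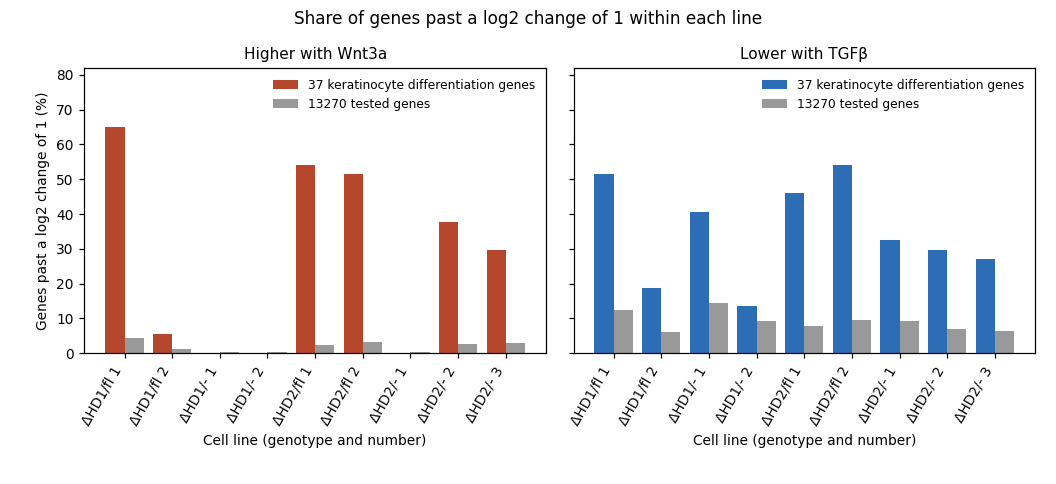
Share of the 37 members and of the 13270 tested genes past a log2 change of 1 in each of the 9 lines, in percent (vertical axis, from 0): higher with Wnt3a and lower with TGFβ. With Wnt3a the members' bars reach 64.9% in ΔHD1/fl line 1 and are 0 in 3 lines, while with TGFβ every line has a bar, between 13.5% and 54.1%.

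In position, 8 of the precursors (Lor, Sprr2a1, Sprr2d, Sprr2h, Sprr1b, Sprr3, Sprr1a and Ivl) lie between 92080271 and 92573790 of chromosome 3 (GRCm38), and Sbsn, Dmkn and Krtdap follow each other between 30732674 and 30791089 of chromosome 7.

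The 7 members that were higher with Wnt3a in all 5 responding lines came from all 5 role groups. Sprr1a, a small proline-rich precursor encoded in this chromosome 3 cluster, the epidermal differentiation complex, went from 9.1 to 302 CPM in ΔHD1/fl line 1, from 17 to 319 CPM and from 28.3 to 479 CPM in ΔHD2/fl lines 1 and 2, and from 1.22 to 197 CPM and 2.18 to 198 CPM in ΔHD2/- lines 2 and 3. In the other 4 lines it was between 0.0355 and 1.89 CPM with Wnt3a. The 5 responding lines were picked by the changes of these same members, so the gap to the other lines is a description. Evpl encodes envoplakin, a linker between keratin filaments and the envelope, and went from 132 to 933 CPM in ΔHD1/fl line 1 and from 127 to 556 CPM in ΔHD2/- line 2. Tgm1 encodes the membrane-bound transglutaminase that crosslinks precursors, and its change in the 5 lines was 1.36 to 2.64 on the log2 scale.

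Asprv1 encodes a retroviral-like aspartic protease that cleaves profilaggrin. It went from 3.16 to 295 CPM in ΔHD1/fl line 1, from 1.42 to 87.3 CPM and from 2.37 to 309 CPM in the ΔHD2/fl lines, and from 0.36 to 6.31 CPM and 0.251 to 6.3 CPM in ΔHD2/- lines 2 and 3. Its log2 change was thus 5.19 to 6.52 in the fl lines and 2.43 to 2.54 in the ΔHD2/- lines. Klk10, a kallikrein protease, was already at 23.9 to 126 CPM in the 5 lines without cytokine and reached 105 to 908 CPM with Wnt3a. In ΔHD2/- line 1, the line with the highest untreated Klk10, it went from 259 to 319 CPM. Dmkn encodes the secreted protein dermokine and reached 346, 178 and 291 CPM in the fl lines and 13.4 and 12.7 CPM in ΔHD2/- lines 2 and 3, from 0.495 to 97.2 CPM without cytokine. S100a14, a calcium-binding S100 protein, went up by a log2 change of 1.01 to 3.39 in the 5 lines and by 0.94 in ΔHD2/- line 1.

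**Figure D2:**
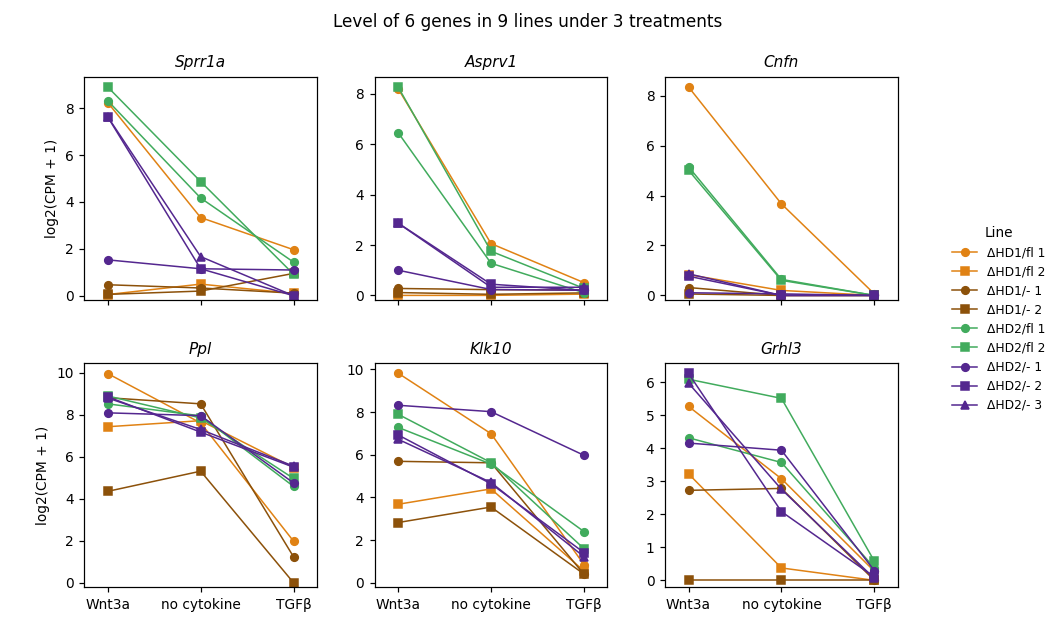
Levels of Sprr1a, Asprv1, Cnfn, Ppl, Klk10 and Grhl3 as log2(CPM + 1) in each of the 9 lines without cytokine, with Wnt3a and with TGFβ, 1 point per library. Wnt3a points of Sprr1a, Asprv1 and Cnfn are far above the untreated points in the 3 responding fl lines, and TGFβ points of Ppl and Klk10 are below the untreated points in all 9 lines.

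A further 9 members were higher in the 3 responding fl lines, which makes 16 in all. Among these, 8 were past the log2 change of 1 in neither ΔHD2/- line 2 nor ΔHD2/- line 3: Sprr2h, Lor, Cnfn, Tgm5, Alox12b, Krtdap, Cdsn and Calml3. Cnfn encodes cornifelin, a minor envelope component, and went from 11.7 to 325 CPM in ΔHD1/fl line 1, from 0.56 to 34.6 CPM in ΔHD2/fl line 1 and from 0.518 to 31.3 CPM in ΔHD2/fl line 2. In ΔHD2/- lines 2 and 3 it went from 0 to 0.705 and 0.823 CPM, log2 changes of 0.77 and 0.87 that lie just under the fold used. Lor, which encodes loricrin, the main protein of the mature envelope, reached 27.8, 5.6 and 5.39 CPM in the 3 fl lines and was at 0 CPM in both ΔHD2/- lines with and without Wnt3a. Alox12b encodes a lipoxygenase needed to attach lipids to the envelope, and it showed the same pattern, with 7.32, 4.91 and 1.47 CPM against 0 CPM in the other 6 lines with Wnt3a. These were the 3 libraries in which Alox12b reached 1 CPM, so it passed the filter only through them. Cdsn encodes corneodesmosin, an adhesion protein of cornified cells. It was higher with Wnt3a in the 3 fl lines by log2 changes of 1.38 to 3.04 and lower by 1.56 in ΔHD1/fl line 2, and its highest level without cytokine, 410 CPM, was in ΔHD1/- line 2.

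The pattern was not the same for every member. Ppl, which encodes periplakin, the partner of envoplakin, was at 38.7 CPM or more in all 9 lines without cytokine and was higher with Wnt3a in 4 of the 5 responding lines by log2 changes of 1.05 to 2.35, with 0.57 in ΔHD2/fl line 1. Sbsn encodes suprabasin, a secreted protein of suprabasal cells, and was higher with Wnt3a in 9 of 9 lines, by a log2 change of 0.49 in ΔHD2/- line 1 up to 2.52 in ΔHD1/fl line 1. Grhl3, a Grainyhead transcription factor of the epidermal barrier, showed its largest changes in ΔHD2/- lines 2 and 3, from 3.24 to 76.3 CPM and from 5.78 to 62.1 CPM, and it went from 0.298 to 8.38 CPM in ΔHD1/fl line 2. In the ΔHD2/fl lines it changed by 0.75 and 0.58. Sfn, which encodes the 14-3-3σ adaptor, was higher by 1.56 to 1.88 in ΔHD1/fl line 1 and ΔHD2/- lines 2 and 3. Il1rn, the interleukin-1 receptor antagonist, passed a log2 change of 1 in 1 of the 9 lines, with 1.40 in ΔHD2/- line 2. Sprr1b, a close copy of Sprr1a whose reads may be split with it, went from 8.87 to 85.9 CPM in ΔHD1/fl line 1 and from 4.53 to 84.8 CPM in ΔHD2/fl line 1, and it reached 180 CPM from 104 CPM in ΔHD2/fl line 2. In all, 28 members were higher in at least 1 of the 5 lines. The other 9 were Sprr2a1, Sprr2d, Sprr3, Tgm3, Hrnr, Casp14, St14, Krt1 and Krt10. Sprr2a1 had 0 reads in all 27 libraries. Aloxe3, the lipoxygenase that acts after Alox12b, was between 0.0417 and 9.18 CPM in all libraries, and Casp14, the caspase of cornification, did not exceed 4.47 CPM. The suprabasal keratin Krt1 did not exceed 0.238 CPM in any library and its partner Krt10 stayed between 1.31 and 4.82 CPM. The matriptase gene St14 was at 318 CPM in the median line without cytokine and changed by at most 0.60 in either direction with Wnt3a.

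**Figure D3:**
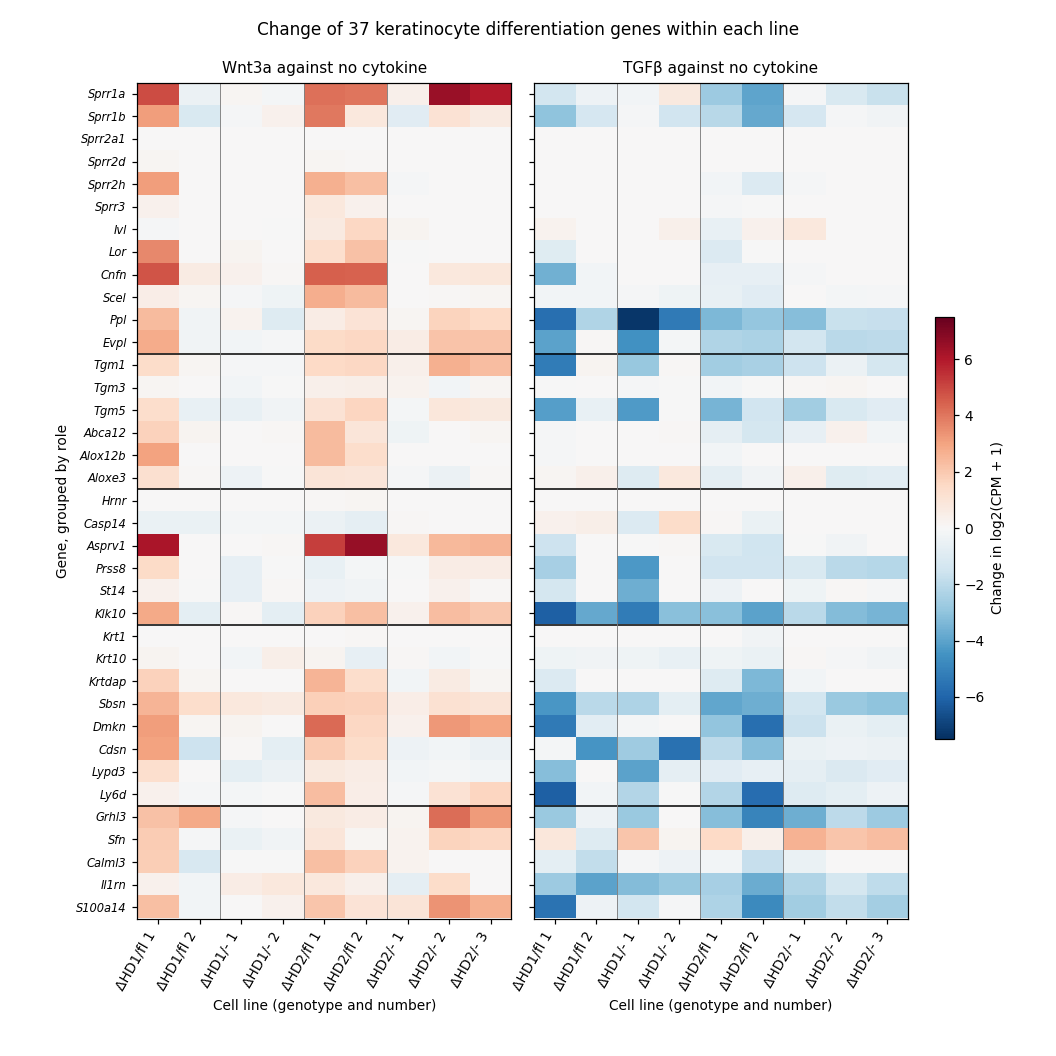
Log2 change of each of the 37 members (rows, ordered by role) with Wnt3a and with TGFβ against no cytokine within each of the 9 lines (columns), on log2(CPM + 1). With Wnt3a, 7 members are past 1 in the same 5 columns, a further column (ΔHD1/fl line 2) holds 2 members past 1, and Il1rn, Ppl and Klk10 are past -1 with TGFβ in all 9 columns.

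Tested over the lines as replicates, the mean Wnt3a response over the 4 genotypes contained no member past the threshold (limma, adjusted p up to 0.05 after Benjamini-Hochberg, with a log2 change of 1 or more in size). The share of all tested genes called was 0.0226% higher and 0% lower. At an unadjusted p under 0.05 there were 11 members, and edgeR on the recovered reads called 0, with 5 at an unadjusted p under 0.05. The median mean change was 0.69 over the 31 tested members and -0.06 over all tested genes. Without ΔHD1/fl line 2 and ΔHD1/- line 2, 6 members rose (0.501% of all genes tested in that fit): Alox12b, Lor, Ppl, Sprr2h, Asprv1 and Cnfn. Alox12b passed the filter only through libraries with Wnt3a, so it had to differ and is no support for a response. With cell line as a block as well, these and Evpl, Sbsn, Cdsn and Dmkn made 10 (0.832% of all genes). Leaving out ΔHD1/fl line 2 alone gave 6 members (0.494%) and leaving out ΔHD1/fl line 1 gave 2, Asprv1 and Cnfn (0.0607%), of which Cnfn then entered the test only through the Wnt3a libraries of ΔHD2/fl, so that its value there is a description. Scel, which encodes sciellin, an envelope precursor, had a limma adjusted p of 0.00194 for the mean response. Its log2 change of 0.69 was under the fold required, and this gene too entered the test only through 2 Wnt3a libraries. Sprr2h and Cnfn each reached 1 CPM in 1 library without cytokine and in 3 with Wnt3a. In the fits above, with and without the block, they also needed Wnt3a libraries to enter, so their calls are descriptions.

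By genotype, limma called 1 member in the Wnt3a response of ΔHD2/fl lines and 0 in that of each other genotype. Scel was at 0.56 and 0.851 CPM without cytokine and at 9.22 and 8.49 CPM with Wnt3a in ΔHD2/fl lines 1 and 2. All other libraries with Wnt3a held 0.571 CPM or less. In ΔHD2/fl, Scel rose by 2.53 ± 0.19 (SE, n = 2 lines) on the log2 scale with a limma adjusted p of 1.55e-06 (called genes in this comparison, 0.113% of those tested). Scel reached 1 CPM only in these 2 libraries and passed the filter through them, and edgeR gave an adjusted p of 1. In ΔHD1/fl, ΔHD1/- and ΔHD2/- limma called 0 members (0.0151%, 0.00754% and 0.00754% of all tested genes), with 3, 0 and 2 members at an unadjusted p under 0.05, and edgeR called 0 as well. Without both ΔHD1 lines 2, 5 members rose in ΔHD1/fl (Alox12b, Lor, Sprr2h, Asprv1 and Cnfn, from the 1 line left, which is assumed to vary like the other groups), and the same 5 and Scel rose in ΔHD2/fl. In these fits 0.593% and 0.439% of all tested genes rose. Alox12b and Scel entered them only through Wnt3a libraries of these genotypes, so their values there are descriptions. Sprr2h and Cnfn, each at 1 CPM or more in 1 library without cytokine, also needed Wnt3a libraries to enter. The values of Sprr2h and Cnfn there are descriptions too.

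With TGFβ, between 5 and 20 members were lower by a log2 change of at least 1 in each line. A log2 change of at least 1 downward was seen for 19 of 37 members in ΔHD1/fl line 1 and 7 in ΔHD1/fl line 2, where 12.5% and 6.16% of the tested genes were lower by as much. It was seen for 15 and 5 members in ΔHD1/- lines 1 and 2 (14.4% and 9.34% of the tested genes). The 5 members of ΔHD1/- line 2 are 13.5% of 37, a share near that of all tested genes, and the members' median change was 0.00 in both ΔHD1 lines 2. In ΔHD2/fl lines 1 and 2 it was seen for 17 and 20 members (7.81% and 9.45%), and in ΔHD2/- lines 1, 2 and 3 for 12, 11 and 10 members (9.29%, 6.9% and 6.35%). At most 1 member was higher by as much in any line. The 2 lines without Epcam had the lowest numbers, and they also held the fewest members at 1 CPM or more without cytokine, 11 in ΔHD1/fl line 2 and 8 in ΔHD1/- line 2 against 15 to 26 in the other lines. The median change of all tested genes with TGFβ was -0.16, and -0.02 after median-of-ratios scaling, which turned the sign of no member's mean response.

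Basal epithelial markers also moved with TGFβ. The summed level of the 5 markers (Krt5, Krt14, Krt15, Trp63 and Itga6) was lower in 9 of 9 lines, at 355 to 16000 CPM without cytokine and 88.4 to 3020 CPM with TGFβ. It went from 3730 to 623 CPM in ΔHD1/fl line 1, from 16000 to 3020 CPM in ΔHD2/fl line 2 and from 1410 to 1200 CPM in ΔHD2/- line 3. Krt14, Trp63 and Itga6 were lower in all 9 lines, and Krt15 was at 0 CPM with TGFβ in 6 of them. In ΔHD1/- line 1, Krt5 and Trp63 were at 0 CPM with TGFβ as well, and the adhesion genes Cdh1 and Epcam went from 817 to 4.29 CPM and from 263 to 12.5 CPM. Other simple-epithelium markers went the other way there, Krt8 from 1110 to 1370 CPM and Krt18 from 637 to 1080 CPM, and the sum of the 7 genes of that list went from 3030 to 2550 CPM. In ΔHD1/fl line 1 that sum went from 3130 to 1670 CPM, with Epcam from 390 to 117 CPM, Cdh1 from 606 to 148 CPM and Krt8 from 1260 to 748 CPM. Krt8 and Krt18 were each higher with TGFβ in 7 of 9 lines. The summed level of 6 fibroblast markers was higher with TGFβ in 7 of 9 lines, for example from 16.8 to 91.7 CPM in ΔHD1/fl line 1 and from 5.03 to 59.5 CPM in ΔHD2/fl line 2, and lower in both ΔHD1 lines 2. The part of these markers in the result was not tested.

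In the mean TGFβ response (n = 9 lines) limma called 5 members, all lower, while 1.86% of all tested genes were called higher and 3.56% lower. Il1rn (chromosome 2, 24336860 to 24351491, GRCm38) was at 2.84, 15.3 and 208 CPM (lowest, median and highest of the 9 lines) without cytokine and at 0.437, 1.63 and 12.1 CPM with TGFβ. It was lower in 9 of 9 lines, and its mean response was -2.84 ± 0.35 (SE) with a limma adjusted p of 7.04e-05. Ppl (chromosome 16, 5086291 to 5132481) was at 38.7, 209 and 365 CPM without cytokine and at 0, 25.9 and 45.9 CPM with TGFβ, lower in 9 of 9 lines, with a mean response of -3.89 ± 0.59 (limma adjusted p 0.000396). All TGFβ libraries except those of ΔHD1/fl line 2 and ΔHD2/- lines 2 and 3 lay below the lowest untreated Ppl value. Klk10 (chromosome 7, 43781054 to 43785410) was at 10.7, 46.2 and 259 CPM without cytokine and at 0.318, 1.33 and 61.9 CPM with TGFβ. Only ΔHD2/- line 1 kept a Klk10 level within the untreated range, and the mean response was -3.92 ± 0.84 (limma adjusted p 0.00429). Sbsn (chromosome 7, 30732674 to 30756134) was at 7.57, 42.7 and 137 CPM without cytokine and at 0.754, 4.5 and 6.71 CPM with TGFβ, so that the treatments did not overlap. Its mean response was -2.72 ± 0.56 (limma adjusted p 0.00318), and its gene overlaps Gapdhs, whose reads could not be told apart here. Grhl3 (chromosome 4, 135541887 to 135573632) was at 0, 5.9 and 44.8 CPM without cytokine and at 0, 0.0739 and 0.497 CPM with TGFβ, lower in 8 of 9 lines and at 0 CPM throughout in ΔHD1/- line 2, with a mean response of -2.46 ± 0.54 (limma adjusted p 0.00528). These 5 genes kept their call under all 18 alternatives.

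More members fell with TGFβ when cell line was fitted as a block, which compares each line with itself. Then 15 members fell and 1 rose, while 5.9% and 3.02% of all tested genes did, and edgeR without a block called 12 lower (3.76%). The 10 members added by the block were Evpl, Ly6d, Sprr1b, Tgm1, Cdsn, S100a14, Lypd3, Dmkn, Tgm5 and Prss8. Evpl had a mean response of -2.11 ± 1.16 (SE) with a limma adjusted p of 0.227 without and 0.0148 with the block, and it went from 132 to 7.06 CPM in ΔHD1/fl line 1 and from 58.7 to 1.55 CPM in ΔHD1/- line 1, while both lines 2 of the ΔHD1 genotypes held less than 1 CPM of it under every treatment. Cdsn had a mean response of -2.36 ± 0.87 (limma adjusted p 0.0702 without and 0.000679 with the block) and went from 94.7 to 3.41 CPM and from 410 to 7.59 CPM in these lines 2. Tgm5, a transglutaminase of the upper epidermis, went from 20.7 to 0.252 CPM and from 19.3 to 0.0794 CPM in lines 1 of ΔHD1/fl and ΔHD1/-. Lypd3, a surface protein of the same family as Ly6d, went from 27.8 to 0.794 CPM in ΔHD1/- line 1 and was at 0 CPM throughout in ΔHD1/fl line 2. Ly6d, a surface protein of the Ly6 family found in stratified epithelium, went from 148 to 1.14 CPM in ΔHD1/fl line 1 and from 77 to 0.497 CPM in ΔHD2/fl line 2. Prss8 encodes prostasin, a protease activated with matriptase, and its gene overlaps Kat8. It went from 31.6 to 0.635 CPM in ΔHD1/- line 1 and was at or near 0 CPM in both lines without Epcam.

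Sfn was the 1 member that rose with TGFβ in the blocked fit. Its levels were 1.99, 30.5 and 612 CPM (lowest, median and highest) without cytokine and 1.49, 134 and 794 CPM with TGFβ. It was higher in 8 of 9 lines, past a log2 change of 1 in 5 of them, and lower by 0.99 in ΔHD1/fl line 2. Its mean response was 1.09 ± 0.98 (SE) with a limma adjusted p of 0.484 without and 0.0064 with the block. Without both ΔHD1 lines 2, limma called 15 members lower without a block, with St14 and Cnfn among them, and 5.59% of all tested genes.

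By genotype, 2 members fell with TGFβ in ΔHD1/- lines, Ppl with a log2 change of -6.30 ± 1.24 (SE, n = 2 lines, limma adjusted p 0.0173) and Il1rn with -3.03 ± 0.72 (limma adjusted p 0.0434), where 1.43% of all tested genes were called. Both were lost with edgeR, at adjusted p of 0.0579 and 0.192. In ΔHD1/fl, ΔHD2/fl and ΔHD2/- limma called 0 members (0.211%, 0.286% and 0.806% of all tested genes), with 4, 7 and 4 at an unadjusted p under 0.05, and edgeR called 0. With cell line as a block, 4 members were lower in ΔHD1/fl (5.42% of all tested genes called in either direction), 4 in ΔHD1/- (9.33%) and 5 in ΔHD2/fl (5.24%). In ΔHD2/- 5 were called (6.03%), of which 4 were lower and 1, Sfn, was higher. Il1rn was among the lower members in each genotype. When ΔHD2/- lines 2 and 3 were counted as 1 line in the blocked fit, the count in ΔHD2/- was 1, Il1rn (2.71% of all tested genes). In that fit 3 members were lower in ΔHD1/fl and 3 in ΔHD2/fl, for which the share of all tested genes is not given here.

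Recombined and fl lines both carry the domain-deleted allele, so their comparison is of lines without and with the floxed allele. Per the methods, recombined lines were made by infecting cells that carried the floxed allele, and which fl line, if any of these, each came from is not given in the sources used here. The fit treats fl and recombined lines as unrelated. With Wnt3a, 6 members were lower in ΔHD2/- than in ΔHD2/fl lines by limma, and 0.641% of all tested genes were. Sprr2h, a small proline-rich precursor, was at 6.2 and 9.04 CPM in the ΔHD2/fl lines and at 0 CPM in all 3 ΔHD2/- lines, a log2 difference of -3.09 ± 0.53 (SE, adjusted p 0.00625). Krtdap encodes a secreted peptide of differentiating keratinocytes and was at 10.4 and 24.8 CPM against 0, 0.539 and 0.107 CPM, a difference of -3.85 ± 0.63 (limma adjusted p 0.00465). Scel was at 9.22 and 8.49 CPM against 0, 0.166 and 0.143 CPM, with a difference of -3.16 ± 0.17 (limma adjusted p 9.68e-09, edgeR adjusted p 0.167). Because Scel passed the filter through these 2 ΔHD2/fl libraries alone, it had to differ here, and its value is a description. In each of these genes the 2 genotypes did not overlap. The genes were picked by this call from the same values, and how many of all tested genes separate as well was not counted. Ivl, which encodes involucrin, was at 3.34 and 4.6 CPM against 0.732, 0 and 0 CPM (-2.04 ± 0.37, limma adjusted p 0.0102). Calml3, a calmodulin-like protein of keratinocytes, was at 4.75 and 17.3 CPM against 0.771, 0 and 0 CPM (-3.08 ± 0.61, limma adjusted p 0.0189). Abca12, which transports lipids into the lamellar granules, was at 10 and 27.4 CPM against 0.27, 0.083 and 0.394 CPM (-3.83 ± 0.72, limma adjusted p 0.0127). Sprr2h, Krtdap, Calml3 and Abca12 reached 1 CPM only in fl lines and entered the test through them, so their values here are descriptions too. Ivl reached it in 1 further library, ΔHD2/- line 1 with TGFβ, and also needed fl libraries to enter.

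**Figure D4:**
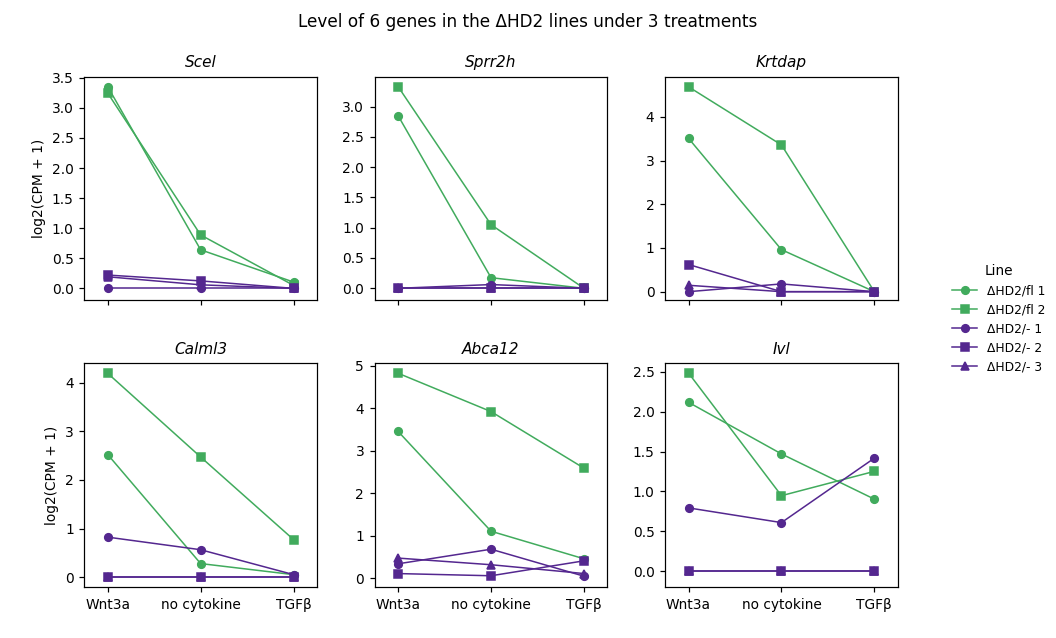
Levels of Scel, Sprr2h, Krtdap, Calml3, Abca12 and Ivl as log2(CPM + 1) in the 2 ΔHD2/fl and 3 ΔHD2/- lines under no cytokine, Wnt3a and TGFβ, 1 point per library. With Wnt3a both ΔHD2/fl lines lie above all 3 ΔHD2/- lines for each of the 6 genes, which were picked by their call in that comparison.

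These 6 differences did not hold under every setting. By edgeR 0 members were called, with 15 at an unadjusted p under 0.05 and adjusted p values of 0.167 to 0.669 for the 6 genes. With ΔHD2/- lines 2 and 3 counted as 1 line, Scel was the 1 member left (0.196% of all tested genes), and without both ΔHD1 lines 2 the count was 16 (1.89%). Without cytokine and with TGFβ limma called 0 members between these genotypes (0.55% and 0.354% of all tested genes), with 8 and 1 at an unadjusted p under 0.05, and edgeR called 0. Basal epithelial markers also differed between these lines, with a summed level of 5 genes of 8270 and 13500 CPM in the ΔHD2/fl lines against 1260, 3480 and 3990 CPM in the ΔHD2/- lines with Wnt3a, and their part in the result was not tested.

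Between ΔHD1/- and ΔHD1/fl lines limma called 0 members under any treatment (0.0678%, 0.0452% and 0.0301% of all tested genes for no cytokine, Wnt3a and TGFβ), with 2, 13 and 3 members at an unadjusted p under 0.05, and edgeR called 0. The 2 ΔHD1/fl lines were far apart: with Wnt3a, Sprr1a was at 302 and 0.0355 CPM, Asprv1 at 295 and 0 CPM, and Cnfn at 325 and 0.781 CPM. Both ΔHD1/- lines were at 0.384 CPM or less for each of these 3 genes. Basal epithelial markers also differed with Wnt3a. Their summed level was 10900 and 724 CPM in the ΔHD1/fl lines and 1510 and 380 CPM in the ΔHD1/- lines. The part of these markers in the result was not tested. Without ΔHD1/fl line 2, 15 members were lower in ΔHD1/- with Wnt3a (2.83% of all tested genes), a value that rests on ΔHD1/fl line 1 alone and on a spread taken from the other groups, and without both ΔHD1 lines 2 there were 12 (2.56%).

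The difference in Wnt3a response between ΔHD2/- and ΔHD2/fl lines was called for 1 member, Scel, at -2.46 ± 0.24 (SE, limma adjusted p 0.000131), and for 0.0151% of all tested genes. The same limit holds, since Scel reached 1 CPM only in the ΔHD2/fl libraries with Wnt3a, and the call was lost with edgeR and with a pseudocount of 0.1 (adjusted p 1 in both). For the Wnt3a response of ΔHD1/- against ΔHD1/fl lines and for the TGFβ responses of both pairs limma called 0 members (0%, 0.00754% and 0.0301% of all tested genes), with 0, 0 and 2 at an unadjusted p under 0.05, and edgeR called 0. In the ΔHD2/- genotype the lines themselves differed, since 14 and 11 members were higher with Wnt3a in lines 2 and 3 and 0 in line 1. Likewise ΔHD1/fl held 1 line with 24 members higher and 1 with 2.

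Of 21 regulators of squamous differentiation, all tested, 10 fell in the mean TGFβ response: Barx2, Klf5, Cebpb, Ehf, Notch1, Grhl1, Trp63, Vdr, Casz1 and Hopx, where 3.56% of all tested genes fell. With cell line as a block, Klf4, Maf, Ovol1, Tfap2c, Grhl2 and Zfp750 were added, which made 16 (5.9% of all tested genes), and edgeR called 9 (3.76%). None rose in these fits. Cebpb, a basic leucine zipper factor of keratinocyte differentiation, was at 36.3, 61.2 and 142 CPM (lowest, median and highest) without cytokine and at 9.37, 12.3 and 41 CPM with TGFβ, with a mean response of -1.93 ± 0.16 (SE, limma adjusted p 1.03e-06). Notch1, the receptor that drives basal cells into differentiation, went from 106, 351 and 688 CPM to 5.18, 76.7 and 282 CPM, with a response of -2.21 ± 0.46 (limma adjusted p 0.00362), and both genes were lower in 9 of 9 lines. Trp63, which encodes the p63 factor of basal cells, had a response of -2.73 ± 0.91 (limma adjusted p 0.0472) that lost its call in 14 of 18 alternatives. For the mean Wnt3a response limma called 0 of the 21, with 3 at an unadjusted p under 0.05, and edgeR called 0. Within lines, 0 to 7 of the 21 were higher by a log2 change of at least 1 with Wnt3a, where 0.264% to 4.31% of all tested genes were. Between 0 and 3 were lower by as much, for which that share was not counted in every line. Notch1, Vdr, Maf and Trp63 were lower with Wnt3a in 9 of 9 lines, with median changes of -0.77, -0.74, -0.58 and -0.83, and none of them was called. Without both ΔHD1 lines 2, Dlx3, a homeobox factor of the epidermis, rose. It went from 0.869 to 12.8 CPM in ΔHD1/fl line 1, from 2.46 to 10.3 CPM and 2.22 to 17.2 CPM in the ΔHD2/fl lines and from 0.599 to 4.61 CPM in ΔHD1/- line 1, a line in which no member passed a log2 change of 1 with Wnt3a, and it did not exceed 0.332 CPM in ΔHD2/- lines 2 and 3, in which 14 and 11 members did.

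**Figure D5:**
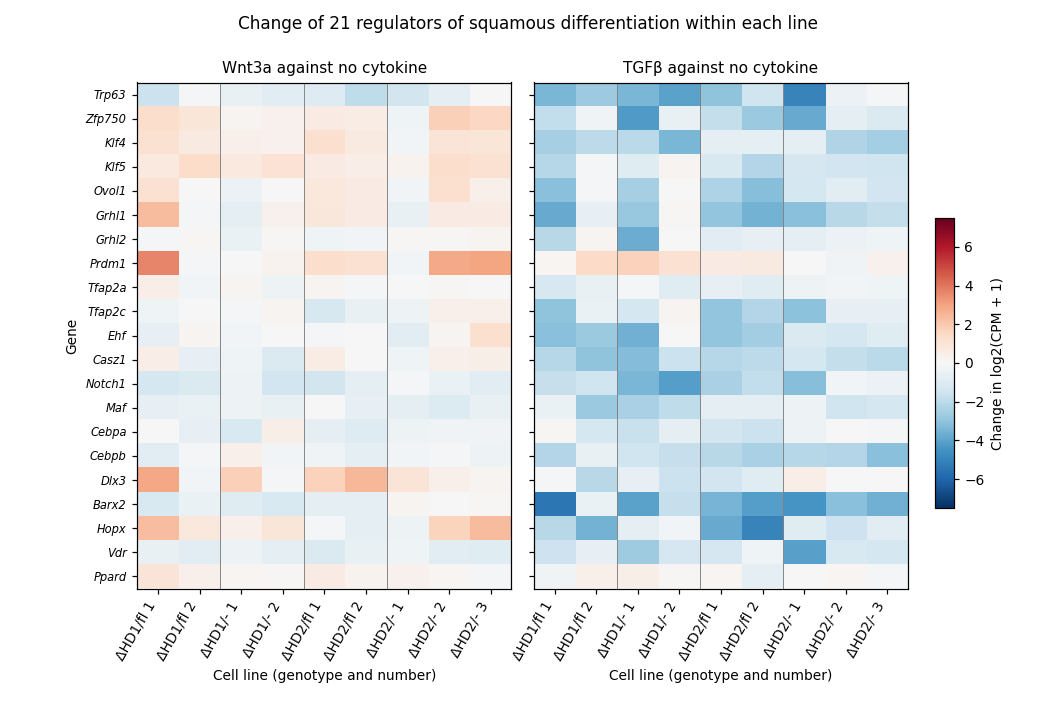
Log2 change of 21 regulators of squamous differentiation (rows) with Wnt3a and with TGFβ against no cytokine within each of the 9 lines (columns), on log2(CPM + 1). With TGFβ 9 to 16 of the 21 are lower by at least 1 in every line, and with Wnt3a 0 to 7 are higher and 0 to 3 are lower by as much. Of all tested genes, 6.16% to 14.4% are lower with TGFβ and 0.264% to 4.31% are higher with Wnt3a by as much in a line.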

How the data were processed

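Mouse mammary tumour lines were profiled by RNA-sequencing in 27 libraries. The authors used a stranded mRNA kit, mapped single-end reads with STAR to mm10, counted them in RefSeq genes with QuasR and deposited CPM values, scaled to the reads assigned to genes in each library. Whether counting used strand is not given in the sources used here, so overlapping genes, and close copies such as the Sprr genes, are uncertain. Of 24454 identifiers, 24374 matched a symbol. All values (100%) were whole multiples of 1 read (tolerance 0.1 read), so reads could be recovered. Depths and floors cover counting error only.

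Genes that reached 1 CPM in 2 or more libraries entered 1 limma fit (3.58.1, trend and robust settings, R 4.3.3) of 12 group means on log2(CPM + 1). A call needed an adjusted p (Benjamini-Hochberg) up to 0.05 and a log2 change of 1 or more in size. Replicates were different lines. The mean response averages 4 genotypes and shares its no-cytokine samples between cytokines. Libraries of a line deviated together from their group means (correlation 0.509 to 0.94), since the number marks a cell line, so the treatment comparisons were also fitted with line as a block. Tried besides were the block, a smaller pseudocount (0.1), no filter on low genes, scaling by median of ratios, edgeR 4.0.16 on recovered reads, leaving out each line, and averaging ΔHD2/- lines 2 and 3. The last of these together with the block, leaving out both ΔHD1 lines 2, and a block by line number across genotypes were chosen after seeing the data. The fit was tested on simulated counts.

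Members were named where called with or without the block, or past a log2 change of 2 in at least 3 lines. Lor, Alox12b, Aloxe3, Casp14, St14, Krt1 and Krt10 lie outside this rule and were named after their values were seen. Members and lists were chosen with earlier results of these data known. Promoter windows and coordinates are from RefSeq, GRCm38. A few genes of the lists are not reported here.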

Additional observations from a re-analysis of the deposited data

Results flagged for a closer look

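The response of Scel to Wnt3a differed between the ΔHD2 genotypes by the interaction term of the limma fit, -2.46 ± 0.24 (SE) on the log2 scale for ΔHD2/- minus ΔHD2/fl (adjusted p 0.000131, and 0.000147 with cell line as a block). Scel went from 0.56 to 9.22 CPM and from 0.851 to 8.49 CPM in the 2 ΔHD2/fl lines, and from 0, 0.0901 and 0.0419 CPM to 0, 0.166 and 0.143 CPM in the 3 ΔHD2/- lines. Scel reached 1 CPM only in the 2 ΔHD2/fl libraries with Wnt3a and was tested through them. The difference was lost with edgeR (adjusted p 1) and with a pseudocount of 0.1 (adjusted p 1), and it could not be tested without either ΔHD2/fl line, because the gene then reached 1 CPM in too few libraries. No group held 4 or more libraries, so single libraries were not tested as outliers.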

How the results depend on the processing

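Counts of called members depended on which lines entered and on the block, and no direction was reversed. For the mean TGFβ response (5 called) a pseudocount of 0.1 gave 10, edgeR 12, the replicate block 16 (also with ΔHD2/- lines 2 and 3 averaged), both ΔHD1 lines 2 left out 15, and this with the block 18. Leaving out 1 line gave 5 to 12, with 8 without ΔHD1/fl line 1 and 12 without ΔHD1/fl line 2. For the mean Wnt3a response (0 called) the values were 6 without both ΔHD1 lines 2, 10 with the block as well, and 0 to 6 without 1 line. The replicate block alone left it at 0. For Wnt3a in ΔHD2/fl (1 called), a pseudocount of 0.1 and edgeR gave 0, both ΔHD1 lines 2 left out 6, this with the block 8, and leaving out 1 line 0 to 6. In ΔHD1/fl these were 5 with both ΔHD1 lines 2 left out, 8 with the block, and 0 to 5.

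For TGFβ in ΔHD1/fl (0 called) the replicate block gave 4, both ΔHD1 lines 2 left out 6, both together 14, and leaving out 1 line 0 to 3. In ΔHD1/- (2 called) no filter and median-of-ratios scaling gave 1, edgeR 0, the block 4, the lines left out 4, both together 13, and leaving out 1 line 0 to 2. In ΔHD2/fl (0 called) the block gave 5, the lines left out 5, both together 15, and leaving out 1 line 0 to 1. In ΔHD2/- (0 called) the block gave 5, the block with lines 2 and 3 averaged 1, the lines left out 1, and these with the block 10.

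For ΔHD2/- against ΔHD2/fl with Wnt3a (6 called) a pseudocount of 0.1 gave 3, edgeR 0, averaging ΔHD2/- lines 2 and 3 gave 1, both ΔHD1 lines 2 left out 16, and leaving out 1 line 1 to 12. Without ΔHD2/fl line 2 or ΔHD2/- line 2 it was 2, and 1 without ΔHD2/- line 3. The same contrast gave 3 without cytokine and 1 with TGFβ with both ΔHD1 lines 2 left out (0 to 2 and 0 to 1 without 1 line). For ΔHD1/- against ΔHD1/fl, leaving both out gave 2 without cytokine, 12 with Wnt3a and 2 with TGFβ, and leaving out 1 line gave 0 to 5, 0 to 15 and 0. Labels give fl and recombined lines the same numbers, but 2 shared numbers do not show that they pair (correlation across genes of the line 1 minus line 2 difference between fl and recombined 0.117 to 0.472 in ΔHD1, 0.089 to 0.176 in ΔHD2). With a replicate block by that number, chosen after seeing the data, the count stayed at 0 in ΔHD1 under each treatment and was 1 without cytokine, 7 with Wnt3a and 0 with TGFβ in ΔHD2. For the differences in Wnt3a response, both lines left out gave 3 and with the block 4 for ΔHD1 (0 to 5 without 1 line), and 3 and 3 for ΔHD2 (0 to 4 without 1 line, 0 with a pseudocount of 0.1 or edgeR). For the difference in TGFβ response of ΔHD1 these were 1, 3 and 0 to 1. The cause was not tested. The depth limits Sprr2h, Lor and Alox12b, whose values of 0 CPM lie under the floor of 3 reads.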

Other observations

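Cornified layer genes outside the list were also examined, 58 of 59 with a row and 33 tested. With Wnt3a, 23 of the 58 were higher by a log2 change of at least 1 in ΔHD1/fl line 1, 18 and 28 in ΔHD2/fl lines 1 and 2, 6 and 5 in ΔHD2/- lines 2 and 3, and 0 or 1 in the other 4 lines. Of all 13270 tested genes, 4.31%, 2.4%, 3.12%, 2.68% and 2.82% were higher by as much in these 5 lines, in the same order. The genes named from here on were chosen after their values were seen. Rptn, which encodes the envelope protein repetin, went from 0.183 to 29.6 CPM in ΔHD1/fl line 1, from 0.603 to 7.09 CPM in ΔHD2/fl line 1 and from 0.185 to 12 CPM in ΔHD2/fl line 2. It was at 0.0771 CPM or less with Wnt3a in the other 6 lines. Krt78, a keratin of stratified epithelium, reached 86.7, 25.6 and 24.9 CPM in the same 3 lines and 0.394 CPM or less elsewhere, and Lce3c, a late cornified envelope gene, reached 25.4, 7.97 and 5.59 CPM against 0.193 CPM or less. The kallikrein gene Klk7 was higher with Wnt3a by log2 changes of 2.04 to 5.24 in all 5 lines in which the list responded. Reads of Lce genes can be split between close copies.

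With TGFβ, 1 to 8 of the 58 were lower by a log2 change of at least 1 in a line, where 6.16% to 14.4% of all tested genes were. The 8 of ΔHD1/fl line 1 stand beside 12.5% of all tested genes in that line. Between 2 and 7 of the 58 were higher by as much, for which the share of all tested genes was not counted. The median change was -0.06 in ΔHD1/fl line 1 and ΔHD2/fl line 1 and 0.00 in the other 7 lines. Lce1g, Lce1h and Lce1f rose in the mean TGFβ response, by 3.45 ± 1.00 (SE, limma adjusted p 0.026), 2.49 ± 0.77 (limma adjusted p 0.0359) and 2.53 ± 0.57 (limma adjusted p 0.00601). Lce1g went from 1.04 to 523 CPM in ΔHD1/- line 2, a line without Epcam, and from 5.81 to 163 CPM in ΔHD2/- line 1, and it did not exceed 0.292 CPM in ΔHD2/- lines 2 and 3. Spink5, a kallikrein inhibitor, fell by 2.24 on the log2 scale (limma adjusted p 0.0266), a call lost in 8 of 18 alternatives. With Wnt3a no gene of these 33 was called by limma in the mean response, with 16 at an unadjusted p under 0.05, and Klk5 was called in the blocked fit (log2 change 1.03, limma adjusted p 0.0797 without and 0.0167 with the block). Klk5 did not exceed 0.345 CPM without cytokine or 0.071 CPM with TGFβ and passed the filter only through Wnt3a libraries, so its value is a description. For TGFβ the block added Klk6, which fell (-1.53, limma adjusted p 0.38 without and 0.0441 with it), and Ugcg, which rose (1.45, limma adjusted p 0.222 and 1.56e-06).

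Among the regulators, Prdm1, which encodes the Blimp1 repressor of late epidermal differentiation, was higher with Wnt3a in the same 5 lines as the list, by log2 changes of 3.65, 1.34, 1.17, 2.83 and 2.94, and changed by -0.18 to 0.27 in the other 4. It was not called in the mean response and was singled out after its values were seen.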
